A study of Homo sapiens with 12 samples.

Results

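TNFRSF12A (also called FN14), the receptor for the cytokine TWEAK, and 4 further genes of the tumour necrosis factor (TNF) receptor family, TNFRSF1A, TNFRSF10B, TNFRSF21 and FAS, were followed over 12 arrays. All 5 genes had a probe set, 11 probe sets in all, out of 11963 named genes and 19064 probe sets with 1 gene symbol. TNFRSF12A was chosen by its measured change with the drug, the most consistent fall of all genes across the lines, and the other receptors were chosen from the same family with results of these arrays known. Changes of these 5 genes between drug and vehicle are therefore given as a description, with no test.

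The RNA came from cultured human melanoma cells of 5 lines (Malme3M, SkMel-1, SkMel-19, SkMel-28 and SkMel-5), all labelled as mutant for BRAF with the V600E change. Cells grew with 10% fetal bovine serum and received, for 8 h, solvent alone (0.1% DMSO) or the RAF inhibitor PLX4032, later named vemurafenib, at 250 nM. A further dose, 1000 nM, was given to Malme3M and SkMel-19. Each condition of a line is a single array, so the replicates are the lines, 5 at 250 nM and 2 at 1000 nM, and no line has a replicate error of its own.

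Receptors of the TNF family bind trimeric ligands of the TNF family at the cell surface. TNFRSF1A, TNFRSF10B, TNFRSF21 and FAS carry a cytoplasmic death domain, through which adaptors such as FADD or TRADD can recruit caspases or kinases. TNFRSF12A lacks a death domain and has a short tail that binds TRAF adaptors, which lead to NF-kB, and its gene is known to be induced by growth factors in many cell types.

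The values are probe set signals on a linear scale, and changes are differences of log2(signal + 12) within a line. Median signals per array lay between 102.5 and 130.4, and a gene was tested when its mean over the arrays reached the 40th percentile of all genes, which corresponds to a signal of 85.7 (the filter level). All 5 receptor genes passed it, as did 7178 of 11963 genes. All 9 tested genes of a list of 10 ERK outputs fell at 250 nM (limma adjusted p under 0.05), against 13.1% of all genes tested. They were named after their values were seen, so their fall is a description and no independent check. CCND1, which encodes cyclin D1, was among them (-3.09 on the log2 scale, SE 0.30, limma adjusted p = 3.49e-04, lower in 5 of 5 lines). The means of DUSP6 and FOSL1 at 250 nM were under the filter level, so these genes entered the test through the other arrays. Of 7 measured melanocyte markers 6 (MITF, PMEL, MLANA, TYR, SOX10 and S100B) were above the filter level on every array, and TYRP1 lay between 18.7 and 12364. Of 6 measured blood cell markers 5 were below it on every array, PTPRC at 21.3 or less, and LCP1 ranged from 44.5 to 2264. Of 8 fibroblast and endothelial markers and of 8 keratinocyte and epithelial markers 4 each were below it on every array. Others were high: LUM (225.8 to 1720), COL1A1 (144.5 to 236.8), KRT10 (1993 to 4507) and KRT18 (91.5 to 781) were above it on every array, and CDH1 reached 5034. Whether such transcripts bear on the receptors was not tested. In RNA of whole cultures fewer cells with a transcript and less of it per cell cannot be told apart.

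TNFRSF12A lost most of its signal in every line at 250 nM. In DMSO its signal was 532 in SkMel-1, 990 in SkMel-5, 1199 in SkMel-28, 1283 in SkMel-19 and 3734 in Malme3M. At 250 nM it was 39.5 in SkMel-1, 144.1 in SkMel-5, 156.6 in SkMel-28, 143.4 in SkMel-19 and 602.9 in Malme3M. Malme3M was the highest and SkMel-1 the lowest line under both conditions, and the level of Malme3M with the drug was above that of SkMel-1 without it, so the 2 groups overlapped although each line fell. Between 7.42% (SkMel-1) and 16.1% (Malme3M) of the DMSO signal was left.

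On the log2 scale the change in TNFRSF12A at 250 nM was -3.40 in SkMel-1, -3.06 in SkMel-19, -2.84 in SkMel-28, -2.68 in SkMel-5 and -2.61 in Malme3M. The mean change was -2.92 (SD 0.32, n = 5 lines), a 7.56-fold lower level. The consistency of the fall over the lines is what the gene was chosen for. In size the mean was 9.11 times the SD, while the SD itself lay at the 76.1st percentile of the 7178 genes tested. The level spanned 7.02-fold between lines in DMSO and 15.3-fold at 250 nM. The array of SkMel-1 at 250 nM was the one array under the filter level, and the size of that fall depends on the pseudocount. When every signal below 85.7 was set to 85.7, the mean change was -2.73. TNFRSF12A is represented by 1 probe set, 218368_s_at, so no other probe set could be set beside it.

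**Figure D1:**
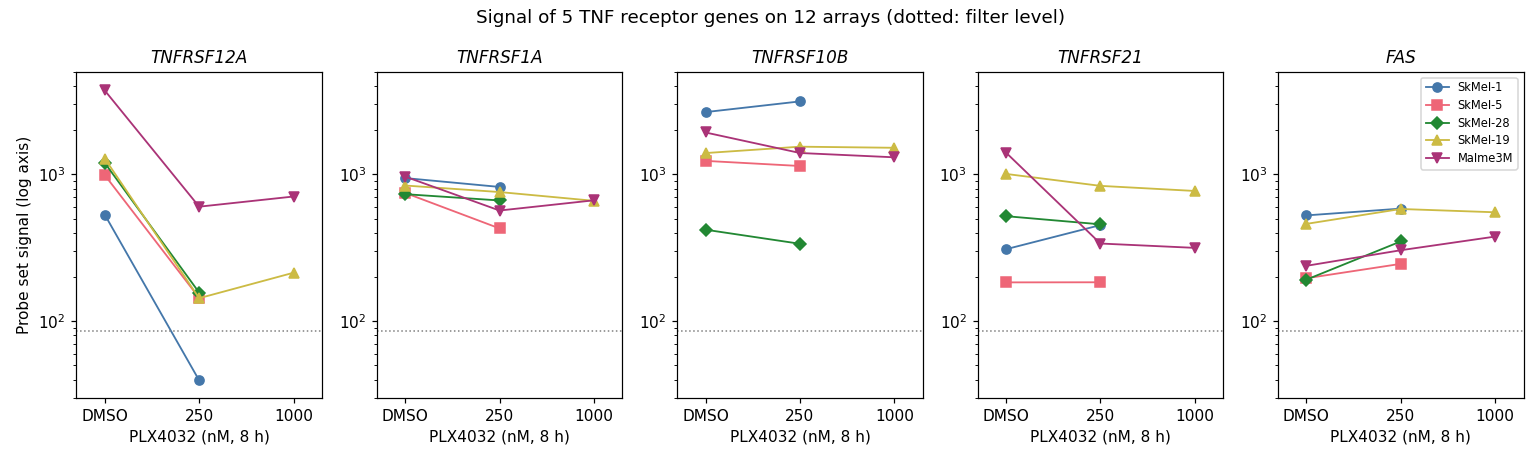
Signal of the probe set that stands for each of the 5 receptor genes (log axis) in DMSO and after 8 h at 250 or 1000 nM PLX4032, with 1 point per array, lines joining arrays of the same cell line and the filter level of 85.7 dotted. TNFRSF12A runs steeply down in all 5 lines, and TNFRSF21 does so in Malme3M (1410 to 338.2). The other changes are smaller, among them TNFRSF1A in SkMel-5 (748.4 to 428.6) and Malme3M (966.6 to 567.6), and FAS in SkMel-28 (191.8 to 349.5).

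At 1000 nM TNFRSF12A remained low. Its signal was 213.9 in SkMel-19 and 707.2 in Malme3M, which is 16.7% and 18.9% of the DMSO signal, and the log2 changes were -2.52 and -2.38 (mean -2.45, SD 0.10, n = 2 lines). These values share the DMSO arrays with those at 250 nM. At this dose TNFRSF12A, TNFRSF1A and TNFRSF21 were lower in both lines and FAS was higher in both, against 31.8% and 41.1% of all genes tested, and the choice of the genes used this contrast too.

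The comparison between the doses asks whether a 4-fold higher dose moved the receptors further. It is made on arrays that also entered the choice of the genes, so that of TNFRSF12A, chosen for its fall, is given with no test. TNFRSF12A was slightly higher at 1000 than at 250 nM in both lines, by 0.54 in SkMel-19 and 0.23 in Malme3M on the log2 scale. The mean difference was 0.38 (n = 2 lines). Over all genes limma called 0 of 7178 (0%), and 75 (1.04%) had an unadjusted p under 0.05, none of them among the other 4 receptors.

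For the other receptors the differences between the doses were smaller. FAS stood at 0.11 (95% interval -0.25 to 0.47), TNFRSF1A at 0.02 (-0.39 to 0.42), TNFRSF10B at -0.06 (-0.49 to 0.37) and TNFRSF21 at -0.10 (-1.14 to 0.93), each with a limma adjusted p of 0.999. For each of FAS and TNFRSF1A the sign was negative in SkMel-19 and positive in Malme3M. With 2 lines these intervals are wide, and a p above the threshold does not show that the doses act alike.

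TNFRSF1A encodes the main receptor for TNF itself, which signals to NF-kB and, through its death domain, can lead to cell death. It was lower at 250 nM in each line, slightly so in 3 of them. Its signal went from 944.5 to 821.7 in SkMel-1, from 748.4 to 428.6 in SkMel-5, from 733.7 to 664.6 in SkMel-28, from 840.3 to 758.5 in SkMel-19 and from 966.6 to 567.6 in Malme3M. SkMel-5 and Malme3M stood apart, with 57.3% and 58.7% of the DMSO signal left against 87.0% to 90.6% in the other 3 lines. The mean log2 change was -0.41 (SD 0.34, n = 5 lines).

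In DMSO the lines differed little in TNFRSF1A, spanning 1.32-fold, whereas TNFRSF10B spanned 6.33-fold and TNFRSF21 7.67-fold. At 1000 nM the signals were 660.9 in SkMel-19 and 666.3 in Malme3M, with log2 changes of -0.34 and -0.53. Malme3M was thus less far below its DMSO array at the higher dose than at 250 nM (-0.76), and SkMel-19 further below (-0.15 at 250 nM).

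FAS, the receptor whose ligand triggers the extrinsic route of apoptosis and a known p53 target, was slightly higher with the drug. At its brightest probe set the signal went from 525.8 to 584.8 in SkMel-1, from 196.1 to 245.8 in SkMel-5, from 191.8 to 349.5 in SkMel-28, from 460.2 to 581.5 in SkMel-19 and from 238.3 to 304.4 in Malme3M. SkMel-28 had the largest rise, to 182.2% of the DMSO signal, while the other 4 lines lay between 111.2% and 127.7%. The mean log2 change was 0.39 (SD 0.26, n = 5 lines), and at 1000 nM the changes were 0.26 in SkMel-19 and 0.64 in Malme3M.

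The other 3 probe sets of FAS gave mean changes of 0.42, 0.35 and 0.29 at 250 nM. They were higher in all 5 lines for 204781_s_at and 215719_x_at and in 4 of 5 for 216252_x_at, where Malme3M stood at -0.12. On the log2 scale SkMel-28 had the largest rise at every one of the 4 probe sets. At 204781_s_at SkMel-5 was close (0.63 against 0.65). There SkMel-5 rose to 165.8% of its DMSO signal and SkMel-28 to 163.6%, and the DMSO signal of SkMel-5, 57.3, was under the filter level. Probe sets with the suffix _x_at can bind related transcripts.

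At the probe sets that stand for the genes, 2 of the 5 receptors (TNFRSF12A and TNFRSF1A) were lower in all 5 lines at 250 nM and 1 (FAS) was higher in all 5. Of all 7178 genes tested 16.6% were lower and 20.9% higher in every line. The choice of the genes used this contrast, so nothing is read from these counts.

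FAS and TNFRSF1A moved in opposite directions in all 5 lines, and the change of TNFRSF21 depended on the line. TNFRSF12A and TNFRSF10B had no upstream window among those used here, so their sequences were not searched. The sequences upstream of FAS, TNFRSF1A and TNFRSF21 are shown because these genes had one. Each is a RefSeq window of GRCh38.p14 from 250 bases before to 50 after an annotated start, written on the strand of the gene. Windows were searched on both strands for the AP-1 site TGANTCA, the ETS site CCGGAAGT, the kappa-B consensus and the GC box GGGCGG, and matches are in capitals. Of 35116 windows of the same length 7.71% held the AP-1 site, 4.14% the ETS site, 11.3% the kappa-B consensus and 45.0% the GC box.
FAS, chr10:88990548-88990847, plus strand, the first of its 3 windows: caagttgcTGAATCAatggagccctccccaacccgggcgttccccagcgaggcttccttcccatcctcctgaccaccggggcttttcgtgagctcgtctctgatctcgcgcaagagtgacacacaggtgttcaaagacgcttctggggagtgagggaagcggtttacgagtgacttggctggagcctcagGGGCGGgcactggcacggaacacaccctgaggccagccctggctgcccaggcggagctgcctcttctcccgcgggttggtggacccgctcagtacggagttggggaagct
TNFRSF1A, chr12:6342027-6342326, minus strand: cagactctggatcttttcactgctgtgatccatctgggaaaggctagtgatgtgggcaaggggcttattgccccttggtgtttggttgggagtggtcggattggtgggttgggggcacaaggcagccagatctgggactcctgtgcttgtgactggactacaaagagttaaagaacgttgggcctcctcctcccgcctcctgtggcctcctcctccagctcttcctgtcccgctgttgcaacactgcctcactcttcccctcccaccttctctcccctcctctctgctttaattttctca
TNFRSF21, chr6:47309856-47310155, minus strand: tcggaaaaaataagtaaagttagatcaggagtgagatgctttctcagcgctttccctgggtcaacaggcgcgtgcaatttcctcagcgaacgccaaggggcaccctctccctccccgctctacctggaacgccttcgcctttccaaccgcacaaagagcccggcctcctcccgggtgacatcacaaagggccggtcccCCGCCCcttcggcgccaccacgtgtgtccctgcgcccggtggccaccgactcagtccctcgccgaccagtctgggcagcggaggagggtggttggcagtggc

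The FAS window held 1 AP-1 match (positions -242 to -236 from the start) and 1 GC box (-60 to -55), and the other FAS windows held GC boxes and, in the third, a kappa-B match but no AP-1 match. The TNFRSF21 window held 1 GC box on the opposite strand, and none of the 4 motifs was found in that of TNFRSF1A. A match is a run of letters and no evidence of binding, and the absence of one says nothing about a factor.

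TNFRSF10B, the death receptor 5 gene that encodes a receptor for TRAIL, had no common direction. At its brightest probe set, 209295_at, the signal went from 2659 to 3146 in SkMel-1, from 1237 to 1142 in SkMel-5, from 420.1 to 336.8 in SkMel-28, from 1398 to 1546 in SkMel-19 and from 1932 to 1399.9 in Malme3M. It was higher in SkMel-1 and SkMel-19 and lower in the other 3 lines, with a mean log2 change of -0.10 (SD 0.30, n = 5 lines). The order of the lines was kept apart from SkMel-19 and Malme3M, which changed places, with SkMel-1 highest and SkMel-28 lowest with and without the drug.

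The other probe sets of TNFRSF10B also spread around 0, at -0.27 (SD 0.38) for 210405_x_at and -0.17 (SD 0.44) for 209294_x_at. Malme3M and SkMel-28 were lower and SkMel-1 was higher at all 3. At 1000 nM, 209295_at stood at 0.12 in SkMel-19 and -0.56 in Malme3M, in the same directions as at 250 nM (0.14 and -0.46). At the other probe sets SkMel-19 changed sign between the doses, from -0.19 to 0.08 at 210405_x_at and from -0.07 to 0.36 at 209294_x_at, while Malme3M was lower at both.

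TNFRSF21, which encodes death receptor 6, showed the widest spread between lines of the 5 genes. The signal went from 309.2 to 451.5 in SkMel-1, from 183.8 to 184.1 in SkMel-5, from 519.5 to 457.1 in SkMel-28, from 1008 to 835.9 in SkMel-19 and from 1410 to 338.2 in Malme3M. Malme3M alone lost most of its signal, with 24.0% left, while SkMel-1 rose to 146.0% and the other 3 lines kept between 82.9% and 100.2%. The mean log2 change was -0.39 (SD 0.96, n = 5 lines), and without Malme3M it was 0.02 (SD 0.36, n = 4 lines). The SD over lines of TNFRSF21 lay at the 99.4th percentile of the 7178 genes tested, against the 76.1st for TNFRSF12A.

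The fall of TNFRSF21 in Malme3M was found at both probe sets and both doses. It was -2.02 at 218856_at and -2.00 at 214581_x_at with 250 nM, and -2.12 and -2.10 with 1000 nM. In SkMel-19 the same 4 values were -0.27, -0.31, -0.38 and -0.37. All 4 values of Malme3M rest on its 1 DMSO array, where TNFRSF21 was the highest of the 5 lines. At 214581_x_at SkMel-5 and SkMel-28 were lower too, at -0.59 and -0.58, so the values of those lines depended on the probe set.

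**Figure D2:**
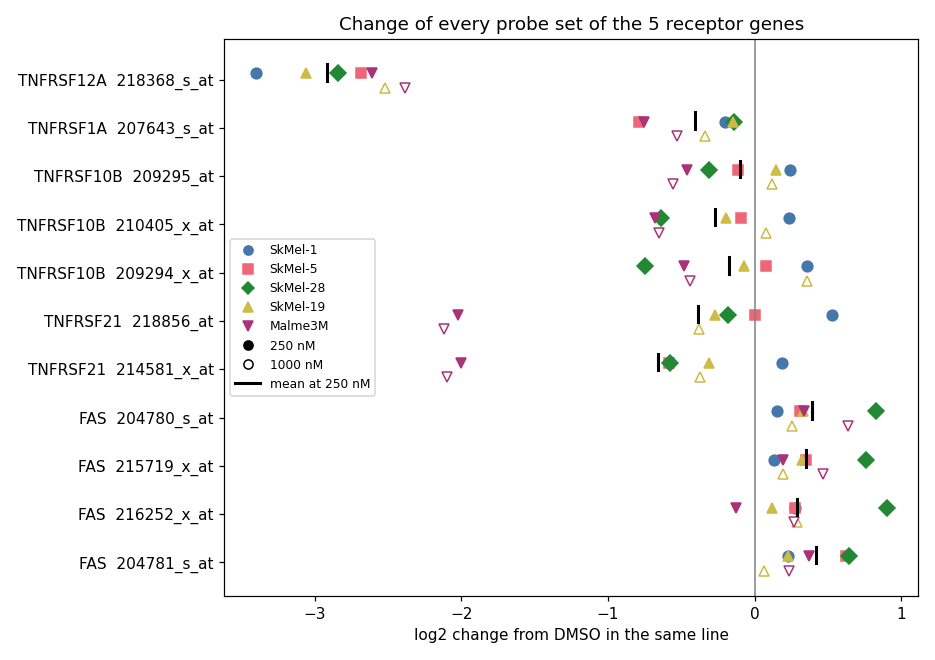
Change from DMSO on the log2(signal + 12) scale within each line at all 11 probe sets, with filled markers at 250 nM, open markers at 1000 nM (SkMel-19 and Malme3M) and a bar at the mean over 5 lines at 250 nM. TNFRSF12A lies between -3.40 and -2.38, FAS above 0 but for 1 marker, and TNFRSF21 in Malme3M near -2 at both probe sets and doses.

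The profile of TNFRSF12A over the 12 arrays was set against those of the 7177 other genes tested, each less its own mean, by the root mean square difference in log2 units. The median gene differed by 1.73. The 6 closest genes were CHSY1, an enzyme of chondroitin synthesis (0.87), TIMP3, an inhibitor of metalloproteinases (0.88), PLAUR, the urokinase receptor (1.01), ELK3, an ETS family factor (1.04), PMEPA1, a membrane adaptor that restrains TGF-beta signalling (1.04), and VDR, the vitamin D receptor (1.07). All arrays are shared by the genes compared, and the measure gives no p.

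These genes were selected on the same 12 arrays for their likeness, so what follows describes the selection. Each of the 6 was lower in all 5 lines at 250 nM, with mean log2 changes from -1.68 (ELK3, SD 0.52) to -1.47 (CHSY1, SD 0.28), a smaller fall than that of TNFRSF12A. For 5 of them the highest DMSO signal was that of Malme3M, as for TNFRSF12A, while VDR was highest in SkMel-28 at 626. SkMel-1 was the lowest line in DMSO for 5 of them, and for PLAUR it was SkMel-19. The means of PMEPA1 and VDR at 250 nM were under the filter level, so these genes entered through their other arrays. PMEPA1 only just reached the filter, and in SkMel-1 its DMSO signal of 76.7 was already under 85.7. A gene that enters in this way had to differ, and the sizes of its falls depend on the pseudocount. Among the other receptors, TNFRSF1A was the closest to TNFRSF12A (1.57) and FAS the farthest (2.03), on either side of the median gene.

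**Figure D3:**
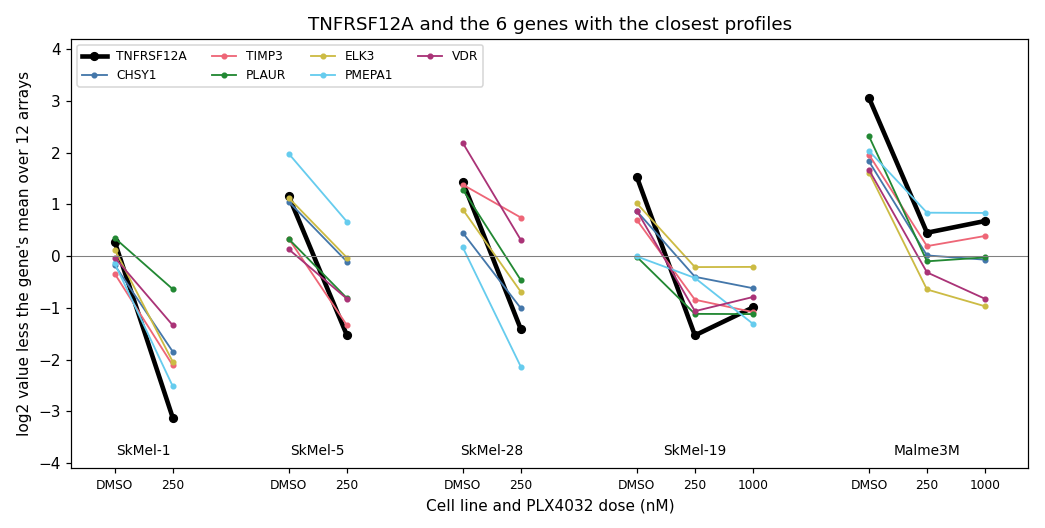
log2 value less the mean of each gene over 12 arrays for TNFRSF12A (thick black) and the 6 genes with the smallest root mean square difference from it, by cell line and PLX4032 dose. All 7 genes lie lower at 250 nM than in DMSO in each line, with the widest steps in TNFRSF12A.

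Genes of the same signalling system were then tested, from 6 lists that hold 126 genes besides these 5 receptors. Of these, 103 had a named probe set, 56 passed the filter, and at 250 nM 9 fell and 2 rose (limma adjusted p under 0.05, cell line as a block, n = 5 lines). This is 19.6% of 56, against 28.3% of all 7178 genes tested, 13.1% lower and 15.2% higher. The median log2 change of the 56 genes was -0.03, and that of all genes tested was 0.03. The lists were drawn up with earlier results of these arrays known, in which BID, CXCL1 and LIF had already been seen to fall. LIF is counted among the 9 but passed the filter only through its DMSO arrays.

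Among the other receptors 18 of 24 had a named probe set, 3 were tested and 1 fell, against 13.1% of all genes tested. LTBR, the lymphotoxin beta receptor that drives non-canonical NF-kB, went from 821.4 to 810.3 in SkMel-1, from 802.3 to 444.5 in SkMel-5, from 778.6 to 505 in SkMel-28, from 735.2 to 445.1 in SkMel-19 and from 752.8 to 380.7 in Malme3M. SkMel-1 hardly moved, and the drug and DMSO groups overlapped through that line alone. LTBR fell 1.54-fold (log2 -0.63, SE 0.13, limma adjusted p = 0.00887). The other receptors tested, CD40 (-0.08, limma adjusted p = 0.746) and TNFRSF14 (-0.02, limma adjusted p = 0.871), receptors best known from immune cells, did not pass. Of the ligands 15 of 18 had a named probe set and 2 were tested. TNFSF9, the ligand of 4-1BB, fell (-0.47, SE 0.15, limma adjusted p = 0.0428, lower in 4 of 5 lines), and CD70 did not pass (-0.20, limma adjusted p = 0.478). TNFSF9 lost its call when SkMel-1, SkMel-28, SkMel-19 or Malme3M was left out (limma adjusted p = 0.118, 0.124, 0.0598 and 0.126), and in the fit without the filter (0.0833).

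Of 17 adaptors and ubiquitin regulators tested, 2 fell and 1 rose (17.6%, against 28.3% of all genes tested). TNFAIP3, which encodes A20, the ubiquitin-editing brake on NF-kB, fell 2.95-fold (-1.56, SE 0.21, limma adjusted p = 0.00121, lower in 5 of 5 lines). Its signal fell from 2316 to 544 in SkMel-1, from 721.9 to 131.8 in SkMel-28 and from 687.7 to 244 in SkMel-19, and changed less in SkMel-5 (2347 to 1370). TRAF4, a TRAF family member, fell 1.87-fold (-0.90, SE 0.11, limma adjusted p = 0.00105, lower in 5 of 5 lines). CYLD, a deubiquitinase that restrains NF-kB, rose (0.46, SE 0.13, limma adjusted p = 0.0271, higher in 5 of 5 lines). CYLD lost its call when SkMel-5, SkMel-28, SkMel-19 or Malme3M was left out (limma adjusted p = 0.0634, 0.0783, 0.0725 and 0.0705), and in the fit without the filter (0.0613). With the mean of its probe sets CYLD was not tested. The second probe set of TNFAIP3 stood at -1.19 and that of TRAF4 at -0.60, while those of CYLD lay between -0.10 and 0.45. The median over the 17 genes was 0.01. TNFSF12, which encodes TWEAK, and TRAF2, RIPK1 and TNFRSF10A were not analysed here.

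Of 15 genes of death receptor signalling and caspase activation tested, 2 fell (13.3%) and none rose. Of all genes tested 13.1% fell and 15.2% rose, so the share that fell was near that of all genes. BID, which links caspase-8 to mitochondria, was lower in 5 of 5 lines (mean log2 change -0.56). It was listed after its fall had been seen, so it is counted here but no test of it is given. PEA15, a death effector domain protein that also binds ERK, fell (-0.45, SE 0.08, limma adjusted p = 0.00343, lower in 5 of 5 lines). The adaptor FADD (-0.04, limma adjusted p = 0.821), the initiator caspase CASP8 (-0.16, limma adjusted p = 0.302) and its inhibitor CFLAR (0.08, limma adjusted p = 0.667) did not pass. The 11 probe sets of CFLAR ranged from -0.23 to 0.50, and the median over the 15 genes was -0.01.

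None of 11 NF-kB subunits, inhibitors and kinases tested passed in limma, against 28.3% of all genes tested. An unadjusted p under 0.05 was found for 41.4% of all genes tested and for 2 of the 11. Their median was -0.01. The 2 were the inhibitors NFKBIA (0.35, SE 0.13, limma adjusted p = 0.0778, higher in 4 of 5 lines) and NFKBIE (-0.51, SE 0.21, limma adjusted p = 0.0954, lower in 4 of 5 lines). NFKBIA passed when SkMel-1 was left out (limma adjusted p = 0.0475).

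Of 8 known NF-kB target genes tested, 3 passed lower and 1 higher, against 13.1% and 15.2% of all genes tested. LIF and CXCL1, among the 3, were listed after their falls had been seen. The cytokine gene LIF had a signal of 2527 in SkMel-1, 905.5 in Malme3M, 211.8 in SkMel-28, 166.3 in SkMel-5 and 19.6 in SkMel-19 in DMSO. At 250 nM it was 246.7 in SkMel-1 and 40.9 or less in the other 4 lines, so every line was lower (mean log2 change -2.58). Its mean log2 value over all arrays was 6.63, just above the filter at 6.61, with 8.28 in DMSO and 5.71 at 250 nM, and with a pseudocount of 1 it was not tested. A gene that passes in this way had to differ, and no test of it is given. The chemokine gene CXCL1 was lower in 5 of 5 lines (mean log2 change -1.65). As its fall had been seen before, no test of CXCL1 is given either. LIF was under the filter level on 7 of 12 arrays and CXCL1 on 5, and with low signals raised to that level the changes were -1.72 and -1.11. ICAM1, an adhesion molecule, fell 2.11-fold (-1.08, SE 0.17, limma adjusted p = 0.00285, lower in 5 of 5 lines) and was above the filter level on all arrays. SDC4, a heparan sulfate proteoglycan, rose (0.50, SE 0.11, limma adjusted p = 0.00978, higher in 5 of 5 lines), and was named after its value was seen. The median over the 8 genes was -0.21.

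**Figure D4:**
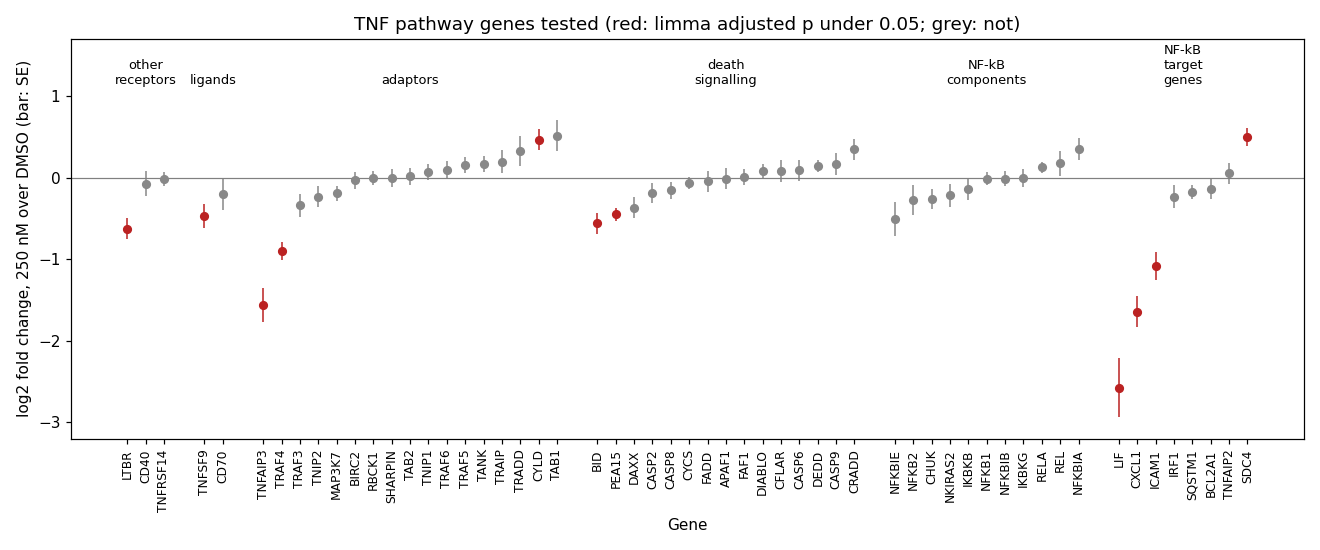
log2 fold change at 250 nM over DMSO with its SE (bars) for the 56 tested TNF pathway genes by list, red where the limma adjusted p was under 0.05. The 9 red points below 0 are LIF, CXCL1, TNFAIP3, ICAM1, TRAF4, LTBR, BID, TNFSF9 and PEA15, the 2 above are SDC4 and CYLD, and most genes lie near 0.

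At 1000 nM against DMSO in SkMel-19 and Malme3M, 5 of the 56 pathway genes fell and 1 rose (10.7%, against 11.2% of all genes tested, 5.89% lower and 5.29% higher). CXCL1 was lower (mean log2 change -2.17). Its mean log2 value was 8.61 in DMSO (5 lines) and 6.06 at 1000 nM (2 lines), under the filter at 6.61. It entered the test through the other arrays, and its fall had been seen before. CXCL1 is therefore counted, but no test of it is given. Also lower were ICAM1 (-1.47, SE 0.29, limma adjusted p = 0.0324) and TNFAIP3 (-1.22, SE 0.21, limma adjusted p = 0.0207). TRAF4 (-1.17, SE 0.12, limma adjusted p = 0.00586) and LTBR (-0.83, SE 0.12, limma adjusted p = 0.0151) were lower too. SDC4 (0.67, SE 0.10, limma adjusted p = 0.0148), named after its value was seen, was higher. In both lines the sign was the same for each of the 6. The comparison shares its DMSO arrays with that at 250 nM. With low signals raised to the filter level CXCL1, ICAM1, LTBR and TNFAIP3 lost their calls, and ICAM1 also did so without the filter and without a trended prior. When Malme3M was left out 0 of the 56 genes passed, and when SkMel-19 was left out 6 fell, of which 3 were among the genes named here. A lone line was then assumed to vary like the others.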

How the data were processed

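The authors deposited linear intensities, 1 for each probe set on each array, and the program was GCOS of Affymetrix, per the submitters' processing notes. Its version, the probe summary and the background treatment are not given in the sources used here. With the top and bottom 2% trimmed, every array had a mean of 500.1, and no further scaling was applied. The number of arrays limits the precision.

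Deposited values became log2(value + 12), the pseudocount being their 20th percentile. After 62 control probe sets were set aside, 19064 had 1 gene symbol, 1043 several and 2108 none. Of each gene the probe set with the highest mean was used, and genes under the 40th percentile were not tested. Tests used limma 3.58.1 in R 4.3.3 (trended prior, Benjamini-Hochberg adjustment over all 7178 genes, threshold 0.05) with cell line as a block, 10 arrays at 250 nM (4 residual degrees of freedom) and 6 for comparisons with 1000 nM (2). The pairing comes from the cell line in the labels: arrays of the same line deviated together (correlations 0.898 to 0.931, and at most -0.14 between lines). On simulated data with log2 changes of 1, the test recovered 88.6% of changed genes at 250 nM, 46.3% at 1000 nM and 62.2% between the doses. With log2 changes of 0.5 it recovered 59.2%, 3.48% and 5.97%. In each of 3 runs 200 of 7178 genes were changed, a smaller share than the 28.3% called at 250 nM in the data. The simulations at 1000 nM and between the doses had the same design. The gap between them is thus not read as a difference in sensitivity.

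Named are all probe sets of the 5 receptors, up to 3 largest changes per list among those that passed (or the 2 smallest p), 11 genes whatever their result, and the 6 closest profiles. TNFRSF14, CD70, SDC4, TNFRSF1B, TRAF1, CXCL8, CCL20, TNFSF13, the ERK outputs and the markers with values were named outside this rule, after their values were seen. Members and lists were chosen with earlier results of these data known. Figures used matplotlib 3.10.9.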

Additional observations from a re-analysis of the deposited data

Results flagged for a closer look

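Among 71 sets of 5 values examined for a sample far from the others (signals in DMSO or changes at 250 nM, 33 of them of the 5 receptors), 3 were found, and chance gives about 1 in 20. The change of FAS at 204780_s_at was 0.83 in SkMel-28, against 0.15 to 0.34 in the other 4 lines. The DMSO signal of PEA15 was 12.3 on the log2 scale in SkMel-28, against 11.1 to 11.3 elsewhere. The change of TIMP3 was -0.63 in SkMel-28, against -1.77 to -1.54 elsewhere.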

How the results depend on the processing

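With another pseudocount, scaling, floor or probe set rule, the mean changes of the 5 receptors against DMSO moved by less than 1 SD between lines, except that with a pseudocount of 50 TNFRSF12A at 1000 nM was -2.33. When 1 line was left out, the change at 250 nM ranged from -3.00 to -2.80 for TNFRSF12A, -0.47 to -0.31 for TNFRSF1A, -0.19 to -0.0097 for TNFRSF10B (the latter without Malme3M), -0.62 to 0.02 for TNFRSF21 and 0.28 to 0.45 for FAS. At 1000 nM a single line then remains, and TNFRSF10B stood at -0.56 or, without Malme3M, at 0.12, and TNFRSF21 at -2.12 or, without Malme3M, at -0.38. The 11 pathway genes that passed at 250 nM became 9 to 11 without 1 line and 0 with no block for cell line, where differences between lines enter the error and 13 of all genes passed. At 1000 nM the 6 became 0 to 6 without 1 line, 2 with low signals raised to the filter level and 0 with no block. The other 4 receptors gave 0 calls between the doses under the alternatives that kept both lines. In the main fit limma called 0 of all 7178 genes there, and simulated log2 changes of 0.5 were recovered in 5.97%. The lack of calls therefore says little. The sign of the difference between the doses turned for TNFRSF1A (-0.0069 with all 12 arrays in 1 fit, -0.20 to 0.23 without 1 line), for TNFRSF10B (0.11 with the mean of its probe sets) and for FAS (-0.073 to 0.30 without 1 line). Without 1 line the change at 250 nM ranged from -0.16 to 0.086 for CD40, from -0.15 to 0.052 for FADD and from -0.053 to 0.16 for CFLAR. Of 221 alternative values for named pathway genes at 250 nM, 196 kept direction and call, 20 lost the call, 1 gained it and 4 turned. The causes were not tested. Signals under 85.7 limit the sizes of falls.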

Other observations

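Most genes of the TNF receptor and ligand families were dim in these lines: 15 receptors and 13 ligands lay under the filter. In a fit without the filter, in which 13 of 103 pathway genes and 13.8% of all genes passed and CYLD and TNFSF9 lost their calls, 4 dim genes gained one. TNFRSF1B, the second TNF receptor gene, fell at 250 nM (-0.91, SE 0.24, limma adjusted p = 0.0387, lower in 4 of 5 lines). It was above the filter level on 4 of 12 arrays, at 317.5 in SkMel-1, 206.7 in Malme3M and 132.8 in SkMel-5 in DMSO. In the same fit the adaptor gene TRAF1 fell (-0.99, SE 0.21, limma adjusted p = 0.0193, lower in 5 of 5 lines). The chemokine genes CXCL8 (-1.35, SE 0.25, limma adjusted p = 0.0113) and CCL20 (-1.67, SE 0.43, limma adjusted p = 0.0360) were also lower in 5 of 5 lines. TRAF1 and CXCL8 were above the filter level on 5 of 12 arrays each and CCL20 on 4. Far below it lay TRAF1 in SkMel-19 (11.7 to 7.6), CXCL8 in Malme3M (19.5 to 15.7) and CCL20 in SkMel-1 (3.4 to 1.8). The falls in those lines are near the floor. NGFR, a neural crest marker, did not pass (-0.34, limma adjusted p = 0.430) and reached 129.4 at most, and the TRAIL gene TNFSF10 reached 11.7 at most (-0.27, limma adjusted p = 0.324).

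Some members of the system differed between lines more than with the drug. FADD had a signal of 3882 in SkMel-5 in DMSO and 5057 at 250 nM, against 351.7 to 796.5 on the other 10 arrays. CD70 stood at 1343 in SkMel-1 in DMSO and 679.8 at 250 nM, and at 201.1 or less on the other 10 arrays. TNFSF13, the ligand APRIL, was between 297.9 and 314 on the 3 arrays of Malme3M and at 69.3 or less on the other 9.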
